A study of Homo sapiens with 43 samples.

Results

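A panel of 9 genes that mark the epithelial to mesenchymal transition were followed through every peak list of a chromatin immunoprecipitation sequencing (ChIP-seq) study of lung squamous cell carcinoma cell lines. They are the transcription factors ZEB1, ZEB2, TWIST1 and SNAI2, the intermediate filament protein VIM, the cadherin CDH2, the matrix proteins FN1 and SPARC, and the receptor tyrosine kinase AXL. The rule names the genes and uses no measured value, although it was written with earlier results of these data known. Each was given as an interval in kb on hg19 and taken with 20 kb on each side, which made 9 windows of 42 to 266 kb among 9554 tested bins of 50 kb that describe the whole series. The windows touched 28 such bins, of which 10 held enough covered length to be tested.

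The study mapped H3K27ac, an acetylated histone found at promoters and enhancers in use, and the transcription factors Sox2, Brn2 and p63. LK2 and NCI-H520 had ChIP for Sox2 and Brn2 as well as H3K27ac, with 2 H3K27ac libraries each. HCC95, KNS62 and HCC2814 had ChIP for Sox2 and no Brn2. The remaining 8 lines, Calu-1, EBC-1, HARA, HCC2279, HCC2450, LC-1/SQSF, NCI-H2887 and SQ-1, had H3K27ac alone. LK2_DNp63 and LK2_GFP are derivatives of LK2, and the labels do not give their construction. The p63 isoform of basal cells is usually called DNp63, and GFP is the green fluorescent protein. Both derivatives had H3K27ac and Sox2 ChIP, and LK2_DNp63 also had p63 ChIP, with 1 library per target. All lines are described as lung squamous cell carcinoma lines grown in the same medium with no treatment, and no RNA or protein was measured in the files used here. The sets of lines are defined by which ChIP experiments the labels list, and whether a line makes a factor is not known from them.

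In an epithelial to mesenchymal transition, cells lose junctions and polarity and take on the shape and movement of mesenchymal cells. ZEB1, ZEB2, SNAI2 and TWIST1 drive it, the ZEB and SNAI proteins by binding E-boxes in promoters of epithelial genes such as the one for E-cadherin. VIM, CDH2 (N-cadherin), FN1 (fibronectin) and SPARC are made more by mesenchymal cells, and AXL is known in lung cancer for its link to a mesenchymal state and to drug resistance.

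Each of the 17 H3K27ac lists had between 16470 and 43480 peaks over 24.6 to 73.7 Mb of the genome, LK2 having the shortest cover. The files hold no read counts, so depth is unknown, and the measure used was the covered length of H3K27ac peaks. Unless it is called deposited, a covered length was scaled so that every library covers the same total, 55.3 Mb, and the 2 libraries of LK2 or of NCI-H520 were averaged. A line with a short list, such as LK2, is thereby raised. A covered length says how much of a window was called as acetylated and is no measure of expression.

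The 9 windows were unevenly acetylated across the 13 unmodified lines. Their covered lengths summed to 75.4 kb in HCC2450, 62.9 kb in Calu-1 and 56.6 kb in HCC2279, the 3 highest lines. HCC2814 (28.3 kb), HCC95 (27.9 kb), HARA (25.9 kb) and KNS62 (23.5 kb) had the lowest sums, whereas LK2 had 33.1 kb and NCI-H520 31.3 kb. This order among the low lines depends on the scaling. As deposited, LK2 had 16.0 kb, HCC2814 16.2 kb, NCI-H520 28.2 kb, HARA 28.5 kb, KNS62 28.9 kb and HCC95 29.1 kb. A high sum did not always go with many acetylated starts. A peak lay within 2.5 kb of all 9 starts in HCC2279 and of 8 starts in both Calu-1 and HCC2450, the 3 lines with the highest sums. SQ-1, with the next highest sum (48.4 kb), had peaks at 4 starts, as had HCC2814 and LC-1/SQSF, and KNS62, with the lowest sum, at 7.

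**Figure D1:**
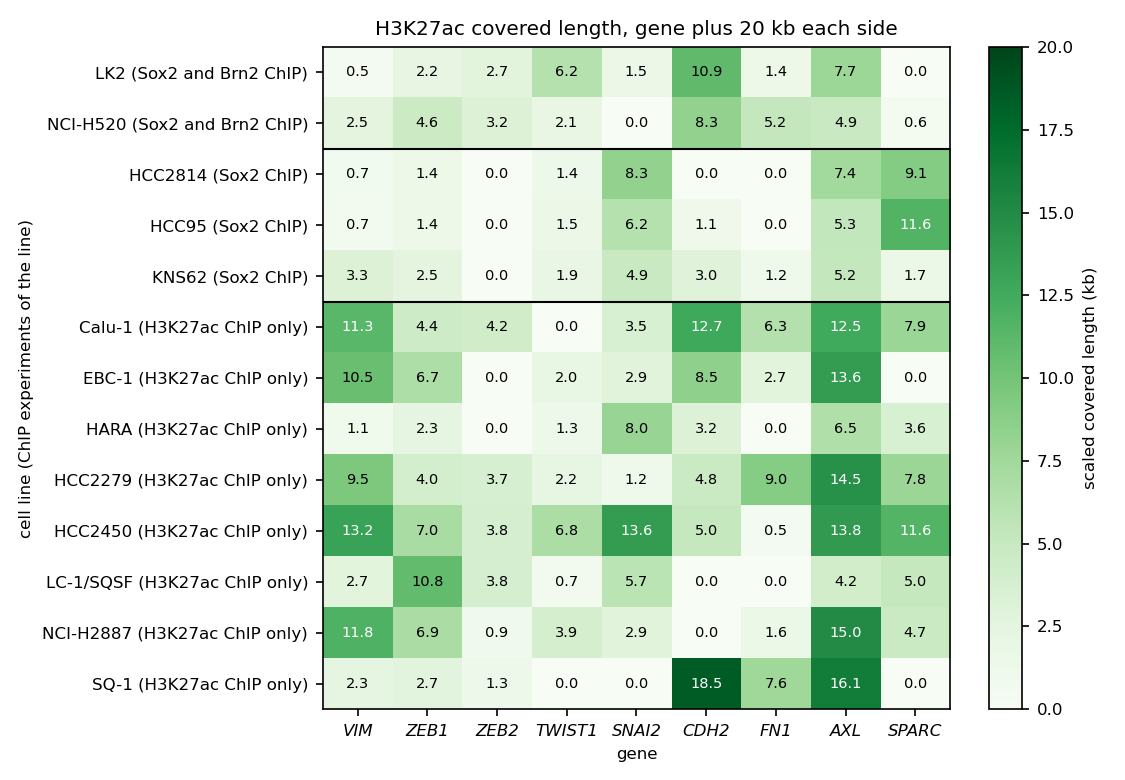
Scaled covered length of H3K27ac peaks (kb, colour and printed value) in the window of each gene (columns) and each line (rows), with lines ordered by the ChIP experiments done in them. LK2 and NCI-H520 are the mean of 2 libraries and every other cell is 1 library. Row by row, HCC2450, Calu-1 and HCC2279 are filled in most columns. SPARC is at or near 0 in LK2, NCI-H520, EBC-1 and SQ-1. SNAI2 is at 0 in NCI-H520 and SQ-1 and low in LK2 and HCC2279.

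The gene starts fell into widely and narrowly acetylated ones. The ZEB1 start was acetylated in all 13 lines, the VIM start in 12 (not in SQ-1), the SNAI2 start in 11 (not in NCI-H520 or SQ-1) and the TWIST1 start in 10. The CDH2 start followed with 9 lines, FN1 and AXL with 8 each, SPARC with 5 and ZEB2 with 3. For LK2 and NCI-H520 a peak in either library was enough. LK2 had peaks at the ZEB1, VIM and FN1 starts in replicate 1 alone. Merging the peaks of the 13 lines gave 77 separate regions in the windows, of which 41 were found in 1 line and 2 in every line. Of the 77, 9 were found in LK2 or NCI-H520 and in no other line, and 5 of these lay in the CDH2 window (266 kb), with 0 in the ZEB1 window of similar length (251 kb). Apart from chr18:25665111-25669085 in CDH2, each of the 9 was called in only 1 of the 2 libraries of 1 line. These 2 lines had 2 libraries each and the other lines 1. The share of such regions over the genome was not counted.

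ZEB1, a zinc finger repressor, had its widest cover at the start, in a region at chr10:31605293-31612300. LC-1/SQSF covered all 7008 bp of it, NCI-H2887 4400 bp and HCC2450 4242 bp as deposited, whereas HCC2814 covered 795 bp. LK2 had a mean of 456 bp, with 0.912 kb in replicate 1 and 0 kb in replicate 2. The breadth of the start thus separated the lines, although each had a peak there in at least 1 library. Over the whole window LC-1/SQSF had the highest value, 10.8 kb, followed by HCC2450 with 7.02 kb.

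ZEB1 was the one window of 9 that passed the threshold between HCC95, KNS62 and HCC2814 and the 8 lines with H3K27ac alone. It measured 1.40 kb in HCC95, 2.51 kb in KNS62 and 1.39 kb in HCC2814, against 2.28 kb (lowest, HARA), 5.56 kb (median) and 10.8 kb (highest) in the 8 other lines. The 2 lowest values of all 13 lines belonged to HCC2814 and HCC95, and the groups overlapped only at KNS62, which lay above HARA. The log2 difference was -1.16 on the scale of scaled bp plus 1000 bp, which understates the change of windows with little cover (two-sided exact permutation test over lines, p = 0.0303). The same test called 8.89% of the 9554 bins (6.88% higher, 2.01% lower), so that 1 of 9 windows is near the background. The groups did not overlap in 1.95% of bins and 0 of 9 windows. The call ended without HCC95 or without HCC2814 (exact p = 0.111 each). It also ended with an equal number of top peaks from every list (exact p = 0.0667). Taken without the flanks, the ZEB1 gene alone passed (log2 -1.47, exact p = 0.00606), and there the groups did not overlap. HCC2814 had 0 kb in the gene, HCC95 0.619 kb and KNS62 1.08 kb, against 1.17 kb (lowest, SQ-1) in the 8 other lines.

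ZEB2, the close paralogue of ZEB1, was acetylated far less often. Its start region, chr2:145273602-145277984, held peaks in Calu-1 (4100 bp as deposited), HCC2279 (4048 bp), HCC2450 (2710 bp), LC-1/SQSF (1086 bp) and NCI-H520 (296 bp, from replicate 2 alone). The peaks of the last 2 lines lay more than 2.5 kb from the start. In the whole window LK2 had 2.72 kb and NCI-H520 3.20 kb, against 0 kb (lowest), 0.941 kb (median) and 4.22 kb (highest, Calu-1) in the 11 other lines. HCC95, KNS62 and HCC2814 had no H3K27ac peak anywhere in the ZEB2 window. Neither contrast passed (exact p = 0.321 for LK2 and NCI-H520, and 0.0848 for HCC95, KNS62 and HCC2814), and in NCI-H520 the cover came mainly from replicate 1, with 5.23 kb against 1.18 kb in replicate 2.

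TWIST1, a basic helix-loop-helix factor, was covered at its start, chr7:19152738-19157974, in 10 lines, with 5235 bp as deposited in HCC2450 and 2463 bp in LK2. Calu-1, EBC-1 and SQ-1 had no peak there. The window measured 6.22 kb in LK2 and 2.08 kb in NCI-H520, against 0 kb, 1.55 kb and 6.82 kb as lowest, median and highest of the 11 other lines. LK2 was exceeded by HCC2450 alone, and the difference of 0.91 (log2) was within the spread (exact p = 0.231).

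SNAI2, the Slug repressor, had little cover in LK2, NCI-H520, SQ-1 and HCC2279. Its start region, chr8:49830373-49838458, was covered over 7904 bp in HCC2450 and 7488 bp in HARA as deposited, and over 4271 to 5986 bp in HCC2814, LC-1/SQSF, HCC95 and KNS62. LK2 had 728 bp there, and NCI-H520 and SQ-1 none. The window measured 1.49 kb in LK2 and 0 kb in NCI-H520, against 0 kb (SQ-1), 4.87 kb (median) and 13.6 kb (HCC2450) in the 11 other lines. Of the 11, 9 lay above LK2. The log2 difference was -1.67 and did not pass (exact p = 0.0897), and SQ-1 and HCC2279 (1.21 kb) lay below LK2. Taken without the flanks, the SNAI2 gene alone passed (log2 -1.33, exact p = 0.0385), and the window passed without SQ-1 (exact p = 0.0303) or without HCC2279 (exact p = 0.0455).

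VIM, whose product vimentin is the filament of mesenchymal cells, split the lines more sharply than its start did. HCC2450 had 13.2 kb in the window, NCI-H2887 11.8 kb, Calu-1 11.3 kb, EBC-1 10.5 kb and HCC2279 9.47 kb. No other line was above 3.27 kb (KNS62), which left a wide gap between these 5 lines and the remaining 8. All 5 were acetylated upstream of the gene, at chr10:17253832-17262318, where HCC2450 covered 7395 bp as deposited, HCC2279 7088 bp, Calu-1 6948 bp and EBC-1 5255 bp, and NCI-H2887 2664 bp. Of the low lines KNS62 had 2961 bp there, LC-1/SQSF 2222 bp and SQ-1 2061 bp. That region held no peak in LK2, NCI-H520, HCC95, HCC2814 or HARA. The VIM start region itself, chr10:17268400-17275684, ran from 260 bp in LK2 (from replicate 1 alone) to 7257 bp in HCC2450, with none in SQ-1. The 5 high lines all belong to those with H3K27ac alone, yet HARA, SQ-1 and LC-1/SQSF of the same set measured 1.06, 2.27 and 2.71 kb.

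VIM passed neither contrast between the sets. LK2 had 0.495 kb and NCI-H520 2.53 kb, against 0.688 kb, 3.27 kb and 13.2 kb as lowest, median and highest of the 11 other lines (log2 -1.19, exact p = 0.231). HCC95 had 0.688 kb, HCC2814 0.726 kb and KNS62 3.27 kb, against 1.06 kb, 9.98 kb and 13.2 kb in the 8 lines with H3K27ac alone (log2 -1.62, exact p = 0.0788). In the second contrast 5 of the 8 lines lay above all 3. That contrast passed without HARA or SQ-1 (exact p = 0.0250 each), without KNS62 (exact p = 0.0222) and with 200 bp added in place of 1000 bp (exact p = 0.0485).

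CDH2, the adhesion molecule gained when cells switch cadherins, was highest in SQ-1 with 18.5 kb, followed by Calu-1 with 12.7 kb. LK2 had 10.9 kb and NCI-H520 8.29 kb, against 0 kb, 3.21 kb and 18.5 kb as lowest, median and highest of the 11 other lines. Both lines lay above 8 of the 11, but the groups overlapped and the log2 difference of 1.43 did not pass (exact p = 0.218). HCC2814, LC-1/SQSF and NCI-H2887 had no peak in the CDH2 window. The cover of CDH2 came from different places in different lines. The start, chr18:25754086-25759142, was acetylated in 9 lines, LK2 with 3972 bp and Calu-1 with 3654 bp as deposited at the top. A region inside the gene, chr18:25690627-25696915, was covered over 6218 bp in Calu-1, 5923 bp in SQ-1, 5580 bp in EBC-1, 4525 bp in HCC2450 and 3524 bp in HCC2279. LK2 had a mean of 172 bp there, from replicate 1 alone. Another intragenic region, chr18:25665111-25669085, was found in NCI-H520 (3437 bp) and LK2 (884 bp) and in no other line. HCC2450 was the one line with the first intragenic region and no acetylated start.

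FN1, the fibronectin gene, had its longest region at its start, chr2:216295118-216304611. HCC2279 had 7820 bp there as deposited, Calu-1 6703 bp, NCI-H520 4448 bp and SQ-1 3444 bp, and the other 4 lines with a peak had 723 to 1030 bp. A region inside the gene, chr2:216273225-216277343, had 3461 bp in SQ-1, 3255 bp in HCC2279, 2499 bp in EBC-1, 1628 bp in Calu-1 and 678 bp in KNS62. EBC-1 had no peak at the start. The window measured 1.41 kb in LK2 and 5.19 kb in NCI-H520, against 0 kb, 1.19 kb and 9.01 kb as lowest, median and highest of the 11 other lines (exact p = 0.564). The 2 libraries of each line disagreed here, with 2.81 kb and 0 kb in LK2 and 2.95 kb and 7.44 kb in NCI-H520.

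SPARC, a secreted matrix protein, was nearly empty in the lines with Brn2 ChIP. The window measured 0 kb in LK2 and 0.558 kb in NCI-H520, where only replicate 2 had a peak, against 0 kb (SQ-1 and EBC-1), 5.04 kb (median) and 11.6 kb (HCC95) in the 11 other lines. Of the 11, 9 were above both. The log2 difference of -2.01 was the largest of the 9 windows and still did not pass (exact p = 0.0769). It passed with SQ-1 or EBC-1 left out (exact p = 0.0455 each). The gene without flanks gave a smaller difference (log2 -1.20, exact p = 0.410). There EBC-1, HARA, KNS62, LC-1/SQSF and SQ-1 were at 0 kb like LK2 and NCI-H520.

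Similar totals at SPARC came from separate places. Calu-1, HCC2279, HCC2450 and NCI-H2887 were acetylated at the start, chr5:151061204-151067532, and upstream of it, chr5:151075727-151081228. HARA, KNS62 and LC-1/SQSF had neither, and were acetylated beyond the end of the gene, at chr5:151024160-151029733 and in a region of 16179 bp, chr5:151005728-151021906, that lies almost wholly outside the window. HCC95 had the start and both downstream regions, and HCC2814 all 4 regions. The downstream neighbour of SPARC in RefSeq is FAT2, so the downstream cover need not belong to SPARC. In the 50 kb bin at chr5:151000001-151050000 HCC95, KNS62 and HCC2814 averaged 20.8 ± 11.3 kb and the 8 lines with H3K27ac alone 4.68 ± 7.61 kb (SD, n = 3 and 8 lines). The log2 difference was 2.88 (SE 0.96), and it did not pass (limma with Benjamini-Hochberg adjustment, adjusted p = 0.356). Of that bin, the part inside the SPARC window averaged 5.22 ± 3.30 kb in the 3 lines and 1.48 ± 1.99 kb in the 8.

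AXL, the receptor for the ligand GAS6, gave the one member bin that differed in the fit across all bins. LK2 and NCI-H520 had no H3K27ac peak in either library in the bin chr19:41700001-41750000, which holds the AXL start, against 2.77 kb (lowest) to 12.04 kb (highest) and 7.23 ± 3.46 kb on average in the 11 other lines (SD, n = 11). Every one of the 11 lay above both. The log2 difference on the scale of scaled bp plus 1000 bp was -2.90 (SE 0.47, limma adjusted p = 0.000958 over 9554 bins), and its size follows the 1000 bp added, since both lines are at 0. The same fit called 10.8% of all bins (4.88% higher, 5.97% lower) and 1 of the 10 member bins. The balance of the calls over all bins moved with the settings, to 179 higher and 699 lower bins without scaling, 292 and 235 with equal numbers of top peaks, 373 and 870 with 200 bp added, 542 and 281 with 5000 bp added, and 1699 and 506 without the filter. Over the 22 other settings in which the bin was tested its adjusted p ran from 2.04e-05 to 0.0360, but no member bin passed once the bin borders were shifted by 25 kb.

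Not all of that bin is AXL. Its first 5 kb lie outside the window, on the side of CYP2S1, a gene that RefSeq places within 20 kb upstream, and there the cover was 2.81 kb in HCC95, 2.31 kb in KNS62, 3.004 kb in HCC2814 and 2.77 kb in LC-1/SQSF. LC-1/SQSF had all of its cover in that stretch. In the remainder, inside the AXL window, LK2 and NCI-H520 had 0 kb and the 11 other lines 6.22 ± 4.57 kb (SD, n = 11), with LC-1/SQSF also at 0 kb. The gene without flanks measured 0 kb in both lines and 0.163 kb (LC-1/SQSF) to 11.4 kb (SQ-1) in the 11 others, a difference of -2.37 (log2, exact p = 0.0128, the smallest that 78 splits allow). The 0.163 kb of LC-1/SQSF is the edge of an acetylated block at the gene's end that all 13 lines share. Without that block LC-1/SQSF was at 0 kb like LK2 and NCI-H520, and the exact p was 0.0385 (log2 -2.34), an alternative added after the data had been seen.

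The whole AXL window did not separate these groups. A region at chr19:41767366-41773236, where AXL ends and HNRNPUL1 follows in RefSeq, was found in all 13 lines with 3289 to 5695 bp as deposited. The window, which includes that region, measured 7.68 kb in LK2 and 4.92 kb in NCI-H520, against 4.22 kb, 12.5 kb and 16.1 kb as lowest, median and highest of the 11 other lines (log2 -0.54, exact p = 0.372). With 50 kb on each side it passed (log2 -0.68, exact p = 0.0128). The neighbouring bin, which holds that region, differed by 0.49 (log2, SE 0.24, limma adjusted p = 0.218).

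The start region of AXL, chr19:41723909-41736919, graded the lines that had it. HCC2279 covered 13011 bp as deposited, HCC2450 12792 bp, Calu-1 12468 bp, SQ-1 10940 bp, EBC-1 8503 bp and NCI-H2887 6230 bp. HARA had 2965 bp, HCC95 2243 bp, KNS62 2205 bp and HCC2814 647 bp. Within the region, a peak 6.55 to 8.79 kb downstream of the start was the only one in HCC95, as was one at 6.82 to 7.47 kb in HCC2814, whereas HARA and KNS62 had a peak at the start and another from 6.69 and 6.85 kb on. RefSeq lists a further AXL start 7.53 kb downstream of the first on GRCh38.p14. Coordinates were not converted between builds, so the overlap was not measured.

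**Figure D2:**
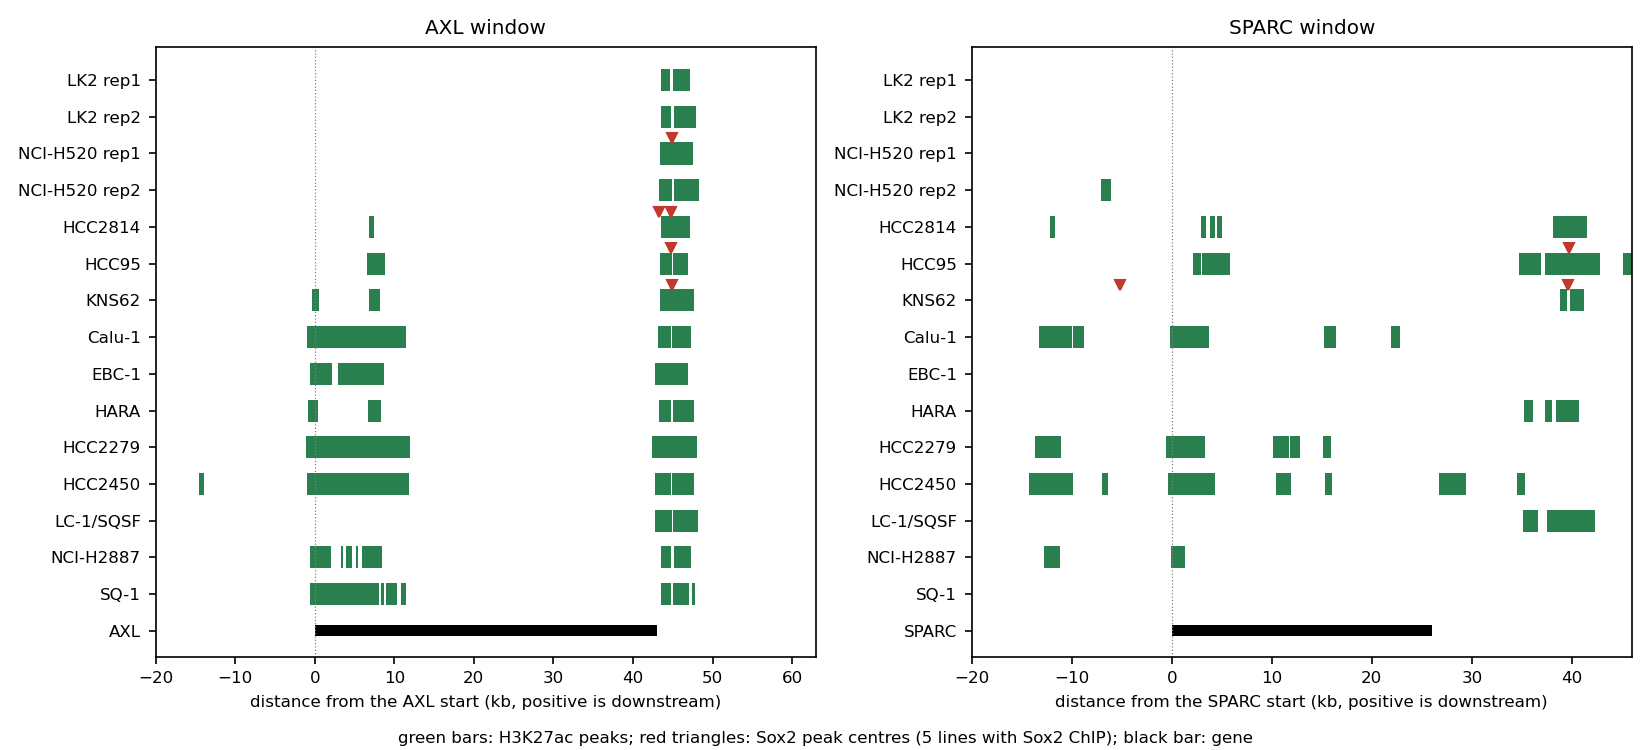
H3K27ac peaks (green bars) and Sox2 peak centres (red triangles) by library along the AXL and SPARC windows, with distance from the gene start in kb on the x axis and the gene as a black bar. At AXL the 4 libraries of LK2 and NCI-H520 show only the block at 43 to 48 kb, which all lines share, and at SPARC the start and the downstream block are held by partly different lines.

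The promoters of AXL and of 2 members that behave differently are printed because the start is where the lines part. RefSeq promoter windows on GRCh38.p14 hold 250 bases before and 50 after the start, 5′ to 3′, and were used for 7 of the 9 genes. No window was found for TWIST1. SNAI2 was left out of the search, so its lack of a window says nothing about RefSeq. Capitals mark the E-box CACCTG or its reverse complement CAGGTG, the letters bound by ZEB and SNAI proteins, searched on both strands. The first AXL window (chr19:41218973-41219272, plus strand) and the further one (chr19:41226505-41226804, plus strand) are followed by 1 of 7 ZEB1 windows (chr10:31318966-31319265, plus strand), from the gene whose start was acetylated in every line, and the first CDH2 window (chr18:28177081-28177380, minus strand).
AXL first: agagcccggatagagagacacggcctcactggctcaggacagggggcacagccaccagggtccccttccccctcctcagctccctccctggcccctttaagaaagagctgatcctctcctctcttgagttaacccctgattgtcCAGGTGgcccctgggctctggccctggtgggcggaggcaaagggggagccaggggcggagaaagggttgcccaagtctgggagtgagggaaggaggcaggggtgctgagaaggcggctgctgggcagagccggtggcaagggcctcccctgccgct
AXL further: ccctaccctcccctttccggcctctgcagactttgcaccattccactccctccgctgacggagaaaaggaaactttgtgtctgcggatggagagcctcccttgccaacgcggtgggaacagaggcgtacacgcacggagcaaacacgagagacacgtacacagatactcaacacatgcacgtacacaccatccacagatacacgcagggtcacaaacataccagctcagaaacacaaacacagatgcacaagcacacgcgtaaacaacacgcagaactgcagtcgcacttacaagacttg
ZEB1: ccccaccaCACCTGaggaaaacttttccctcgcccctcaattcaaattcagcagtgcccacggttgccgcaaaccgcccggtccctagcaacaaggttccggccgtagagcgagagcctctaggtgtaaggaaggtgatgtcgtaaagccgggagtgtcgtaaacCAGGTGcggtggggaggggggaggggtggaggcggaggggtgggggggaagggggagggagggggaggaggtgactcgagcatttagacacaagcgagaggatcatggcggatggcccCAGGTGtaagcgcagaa
CDH2: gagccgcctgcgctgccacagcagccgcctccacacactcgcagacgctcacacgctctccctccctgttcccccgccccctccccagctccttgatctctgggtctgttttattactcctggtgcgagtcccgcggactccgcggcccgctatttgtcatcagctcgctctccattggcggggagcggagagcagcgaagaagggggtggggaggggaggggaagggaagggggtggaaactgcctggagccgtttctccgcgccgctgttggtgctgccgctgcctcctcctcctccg
The first AXL window holds 1 match, which begins 106 bases before the start, and the printed ZEB1 window holds 3, the most of the 7 ZEB1 windows. The first of the 7 ZEB1 windows also held 1, and VIM, ZEB2, CDH2, FN1 and SPARC none. ZEB1 had 7 windows to search, AXL and CDH2 2 each, and VIM, ZEB2, FN1 and SPARC 1 each. Of all 35116 RefSeq promoter windows, 20.6% hold the E-box. The SOX core CATTGT (or ACAATG), which 10.8% of promoter windows hold, was in no window of the 7 genes, and the AP-1 motif TGANTCA, held by 7.71%, was in the other CDH2 window alone. A match is a run of letters and not a bound site.

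Counted over the 9 windows, LK2 and NCI-H520 against the 11 other lines gave 0 calls by the exact test, where 20.6% of all 9554 bins passed (9.03% higher, 11.5% lower). Groups were free of overlap in 0 of 9 windows and in 14.5% of the bins. Differences were positive in 4 windows (ZEB2, TWIST1, CDH2 and FN1) and negative in 5, with a median of -0.21, beside -0.14 over all bins. At 2 of 10 member bins, AXL and SNAI2, limma gave an unadjusted p under 0.05, as it did at 25.6% of all bins. The SNAI2 bin gave a log2 difference of -1.71 (SE 0.76, adjusted p = 0.172). The adjusted p of the SNAI2 bin over 22 alternatives ran from 0.0490 (without SQ-1) to 0.609.

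Between HCC95, KNS62 and HCC2814 and the 8 lines with H3K27ac alone, 6 of 9 differences were negative, with a median of -1.16, beside 0.11 over all bins. ZEB1 was the call described above. AXL measured 5.30 kb in HCC95, 5.17 kb in KNS62 and 7.35 kb in HCC2814, against 4.22 kb, 13.7 kb and 16.1 kb as lowest, median and highest of the 8 (log2 -0.83, exact p = 0.0606). It passed with an equal number of top peaks (exact p = 0.0364) and without scaling (exact p = 0.0303), and also without HARA (exact p = 0.0333) or LC-1/SQSF (exact p = 0.0167). It did not pass with 50 kb on each side (log2 -0.035, exact p = 0.830) or without flanks (log2 -1.39, exact p = 0.109). SNAI2 (0.75), SPARC (0.65) and TWIST1 (0.07) had positive differences, with exact p from 0.339 to 0.933. The limma fit called 0 of 9554 bins, and 1147 (12.005%) had an unadjusted p under 0.05. Of the 10 member bins 4 did, namely VIM (log2 -1.62, SE 0.62), ZEB1 (-1.16, SE 0.45), one CDH2 bin (-1.53, SE 0.69) and the SPARC bin above, with adjusted p of 0.356 to 0.404.

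The members most alike across the 13 lines, by rank correlation of covered length, were VIM with ZEB1 (Spearman 0.79), SNAI2 with SPARC (0.69) and CDH2 with FN1 (0.67), of 36 pairs. The largest value in size was negative, SNAI2 with FN1 (-0.83), followed on that side by SNAI2 with CDH2 (-0.56) and CDH2 with SPARC (-0.49). These are descriptions over lines that share a scaling and an unknown depth.

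Brn2 and p63 peaks were absent from the windows, and Sox2 peaks were present in all but ZEB1. The Brn2 lists of LK2 (4819 peaks) and NCI-H520 (1298 peaks) and the p63 list of LK2_DNp63 (3159 peaks) had none in any of the 9. Brn2 peaks lay in 0 of the 10 member bins, where LK2 had them in 17.4% and NCI-H520 in 6.53% of all 9554 bins. The p63 list had a peak in 1 of 10 (a SPARC bin, outside the window), beside 12.1% of all bins. The nearest Brn2 peak lay 59.8 kb from the TWIST1 start in LK2 and 147.6 kb from the SPARC start in NCI-H520. The 5 unmodified lines with Sox2 ChIP had 27 Sox2 peaks in the windows, of which 15 lay in an H3K27ac peak of the same line and 4 within 2.5 kb of a gene start. All 4 were at SNAI2, and ZEB1 had no Sox2 peak in any list. Of the 10 member bins, 3 held a Sox2 peak in LK2 (19.8% of all bins), 2 in NCI-H520 (33.1%), 5 in HCC95 (43.8%), 6 in KNS62 (31.2%) and 5 in HCC2814 (27.9%). A bin can reach past its window, and the bin counts include Sox2 peaks that lie outside the windows. HCC2814 had Sox2 peaks in only 2 of the 9 windows, SNAI2 and AXL, and KNS62 in 4. The shares of bins were not tested.

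At the SNAI2 start, Sox2 was called in LK2 (chr8:49834042-49834965, rank 2344 of 7611 by the authors' score), NCI-H520 (rank 8062 of 12048), HCC95 (rank 10986 of 14048) and HCC2814 (rank 7256 of 7511). The peaks of LK2 and NCI-H520 overlapped each other just before the start, and those of HCC95 and HCC2814 overlapped each other just after it. In NCI-H520 the site carried no H3K27ac peak in either library, while in the other 3 lines it did. KNS62, with 5986 bp of deposited cover at the SNAI2 start region, had no Sox2 peak in the window.

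The strongest Sox2 peak by rank lay inside ZEB2 in NCI-H520, at chr2:145268042-145268606, rank 529 of 12048, and was acetylated in 1 of its 2 libraries and in no other line. NCI-H520 had 5 Sox2 peaks in the ZEB2 window, against 0 in LK2. At the shared region past the AXL end, Sox2 was called at the same site in NCI-H520 (rank 3207 of 12048), HCC95 (rank 2975 of 14048), KNS62 (rank 5158 of 8907) and HCC2814 (rank 3369 of 7511). No line had a Sox2 peak at the AXL start. Downstream of SPARC, HCC95 (chr5:151027112-151027522) and KNS62 (chr5:151027182-151027642) shared a site inside the acetylated region there. In CDH2, the region acetylated in LK2 and NCI-H520 alone held a Sox2 peak of LK2 (chr18:25666638-25667300, rank 7248 of 7611) and one of LK2_GFP.

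LK2_DNp63 and LK2_GFP were compared as single libraries, so their differences carry no test. Of the 9 windows, 2 were past 2-fold on the log2 scale of scaled bp plus 1000 bp, SNAI2 higher and CDH2 lower, where 5.22% of the 9554 bins were higher and 3.41% lower by that measure (8.64% in all). The SNAI2 window held 5.48 kb as deposited in LK2_DNp63, against 0.927 kb in LK2_GFP, and 0.865 and 0.592 kb in the LK2 libraries. The CDH2 window held 1.44 kb as deposited in LK2_DNp63, against 7.31 kb in LK2_GFP, and 4.94 and 5.51 kb in the LK2 libraries. The differences were 1.88 for SNAI2 and -2.03 for CDH2 (log2), and 1.75 and -1.77 without scaling.

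**Figure D3:**
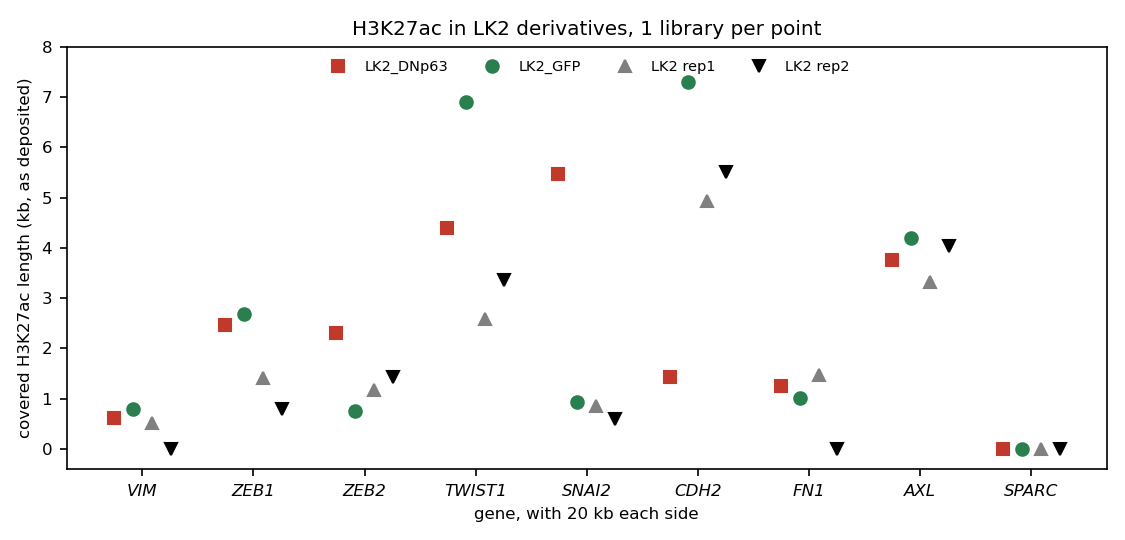
Deposited covered length of H3K27ac (kb) in the window of each gene in LK2_DNp63, LK2_GFP and both LK2 libraries, 1 point per library. LK2_DNp63 lies above the 3 other libraries at SNAI2 and ZEB2 and below them at CDH2, and all 4 are at 0 for SPARC.

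The gain at SNAI2 was at its start. Within 2.5 kb of it LK2_DNp63 had 4.31 kb of H3K27ac as deposited and LK2_GFP 0.487 kb, and Sox2 was called there in LK2_DNp63 (chr8:49833347-49834985, rank 1704 of 4217) and LK2_GFP (chr8:49833593-49834877, rank 2519 of 12034). That Sox2 peak of LK2_DNp63 overlapped H3K27ac of the same derivative, and that of LK2_GFP did not. A further Sox2 peak of LK2_GFP upstream (chr8:49835911-49836581, rank 10665 of 12034) did. The nearest p63 peak lay 207.4 kb from the SNAI2 start. At the CDH2 start LK2_DNp63 had 1.08 kb and LK2_GFP 3.16 kb, and the intragenic region chr18:25690627-25696915 had 365 bp in LK2_DNp63 and 2198 bp in LK2_GFP. The region found only in LK2 and NCI-H520 among the unmodified lines had no peak in LK2_DNp63 and 1007 bp in LK2_GFP. Both Sox2 peaks of LK2_GFP in CDH2 were missing from the LK2_DNp63 list, which is shorter, with 4217 against 12034 Sox2 peaks, and the nearest p63 peak was 2769 kb from the CDH2 start.

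**Figure D4:**
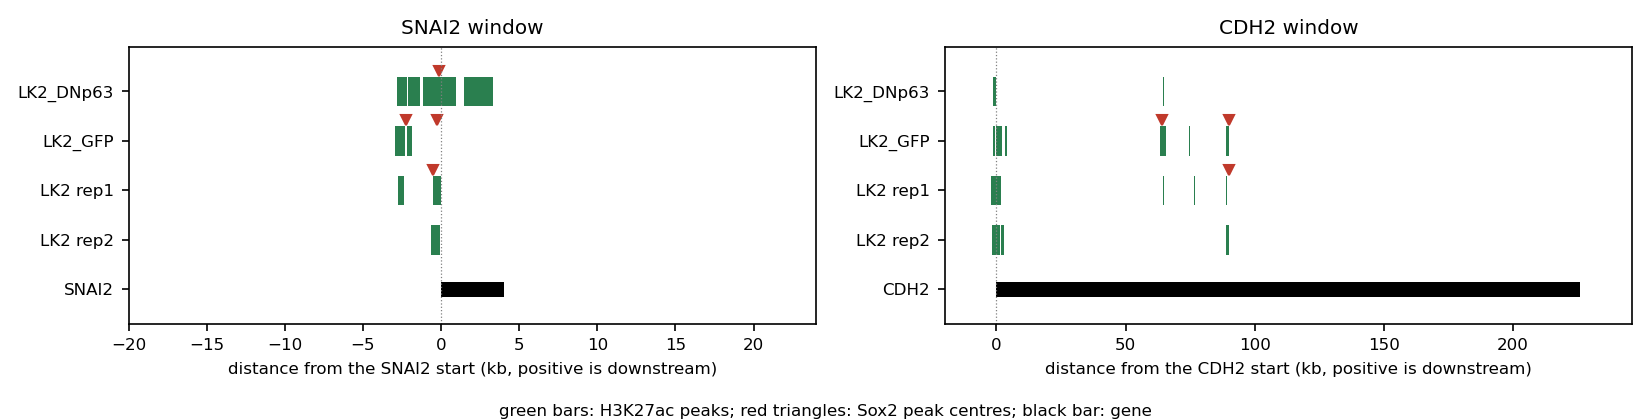
H3K27ac peaks (green bars) and Sox2 peak centres (red triangles) in LK2_DNp63, LK2_GFP and both LK2 libraries along the SNAI2 and CDH2 windows, with distance from the gene start in kb on the x axis and the gene as a black bar. In LK2_DNp63 the SNAI2 start is widely covered, and at CDH2 the peaks are fewer and narrower than in LK2_GFP.

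ZEB2 came close to 2-fold, with 2.30 kb in LK2_DNp63 against 0.765 kb in LK2_GFP as deposited (log2 0.99 after scaling). After scaling LK2_DNp63 had 3.48 kb and LK2_GFP 1.25 kb. The LK2 libraries had 2.23 and 3.21 kb, the second close to LK2_DNp63. In LK2_DNp63 the ZEB2 window included a peak at -1.267 to -0.759 kb from the start. Another, of 1217 bp, lay 2.343 to 3.56 kb downstream of the start, mostly beyond 2.5 kb. LK2_GFP and LK2 had no peak at either place. TWIST1 had 6.64 kb after scaling in LK2_DNp63 against 11.3 kb in LK2_GFP (log2 -0.69), and the LK2 libraries, at 4.90 and 7.54 kb, lay on either side of LK2_DNp63. The differences of VIM, ZEB1, FN1 and AXL were at most 0.25 in size (log2), and AXL had no cover at its start in either derivative. SPARC had no peak inside its window in either, although LK2_DNp63 covered 958 bp of the downstream region chr5:151005728-151021906 and LK2_GFP none. A p63 peak of LK2_DNp63 (chr5:151007561-151008511, rank 170 of 3159 by the authors' score) lay in that region, 12.5 kb outside the window.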

How the data were processed

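The 27 peak lists hold the interval of each peak and a score per peak deposited by the authors, which was used for ranks inside a list and nothing else. Peak names begin with MACS. The caller's version, its threshold and its use of the 16 inputs (not analysed here) are not given in the sources used. The submitters' processing notes name Bowtie2 and the build hg19 (GRCh37). Brn2 chromatin was cross-linked and digested differently from the rest, per the labels' protocols. Depth is unknown, and a shallower library lists fewer peaks. Of 652792 deposited peaks, 2092 off chromosomes 1 to 22 and X were left out.

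Peaks were merged per list, and their covered length per window and per 50 kb bin was scaled to a common total. Each line counted as 1 replicate. The labels name no separate cultures. The p-values therefore cover the spread between these samples alone, and that spread may be technical. No more than 2 libraries shared a description code that could be a run, so no value within runs could be had. Windows were tested by two-sided exact permutation over lines on log2(scaled bp + 1000), with the same test on every bin as background, and bins whose mean was 2000 bp or more by limma 3.58.1 (R 4.3.3, mean-variance trend, Benjamini-Hochberg, threshold 0.05), tested on simulated data. The exact p over windows are not adjusted. There were 18 such tests. A factor peak counted with an overlap of 1 bp. A start was acetylated with a peak within 2.5 kb in any library of the line.

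All 9 genes are described. Single regions are those at the start, the longest and those shared by most lines of each window, and some further regions and bins were named after their values were seen. The genes, sets and tests were chosen with earlier results of these data known. Strands of TWIST1 and SNAI2 are textbook knowledge. A further list of pathway genes was not used, since no annotation on hg19 was at hand. Python 3.11.15 and RefSeq tables were used besides.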

Additional observations from a re-analysis of the deposited data

How the results depend on the processing

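Alternatives changed 1 setting at a time. Leaving out each of the 8 lines with H3K27ac alone was added after the data had been seen. For LK2 and NCI-H520 against the 11 other lines, the count of called windows, 0, became 2 without flanks (SNAI2 and AXL) and 1 with 50 kb each side (AXL), and ran from 0 to 2 with a line or library left out. Without LK2 or without NCI-H520 the exact test cannot go below p = 0.0833. The 1036 called bins became 2205 without the filter and 527 with equal numbers of top peaks, and ran from 239 (without NCI-H520; 427 without LK2) to 1385 with a line or library left out. The 1 member bin became 0 with bins shifted by 25 kb, and ran from 1 to 2 (without SQ-1, SNAI2 added) with a line or library left out.

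For HCC95, KNS62 and HCC2814 against the 8 other lines, the 1 called window became 2 without scaling and 2 with a pseudocount of 200 bp, and ran from 0 to 3 with a line left out. The 0 called bins became 7 with equal numbers of top peaks, 35 without the filter, 4 with 200 bp and 1 with 5000 bp, and ran from 0 to 48 with a line left out (2 when KNS62 was dropped, 10 for HARA, 48 for LC-1/SQSF). The 27 Sox2 peaks became 16 with equal numbers of top peaks, 13 without flanks and 50 with 50 kb each side.

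The sign of 8 single differences turned, none of them called. In LK2 and NCI-H520 minus the others, the ZEB1 window became 0.31 with equal numbers of top peaks and ran from -0.60 to 0.19 (without LK2) with a line left out, its bin from -1.07 to 0.40 (without LK2) and the FN1 window from -0.036 (without NCI-H520) to 1.33, and the second AXL bin became -0.036 without scaling. In HCC95, KNS62 and HCC2814 minus the 8 others, the TWIST1 window became -0.027 without scaling, -0.30 with 50 kb each side and -0.049 with 5000 bp and ran from -0.12 (without Calu-1 or SQ-1) to 0.31 with a line left out. The SPARC bin from 151050001 became 0.10 with 200 bp and ran from -0.51 to 0.55 with a line left out. The CDH2 bin from 25750001 ran from -0.75 to 0.12 (without HCC2814). The second AXL bin became 0.0059 with 5000 bp and ran from -0.26 to 0.14 with a line left out. The cause of these changes was not tested. No paired analysis was possible because the compared groups are made of different lines. Repeat libraries were averaged to 1 value per line. Unknown depth limits every length of 0, which says only that no peak was called.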
